A study of Mus musculus with 6 samples.

Results

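Transcripts of the autophagy machinery were compared between peritoneal macrophage cultures of old and young mice. The set comprised 33 genes, taken by symbol from the 19973 genes of the deposited table: 5 of the initiation complex, 5 of the nucleation complexes, 6 that supply membrane or read its lipid mark, 7 of the conjugation system, 5 of the LC3 family and 5 cargo receptors. The old cultures came from male C57BL/6 mice of 18 months and the young ones from male C57BL/6 mice of 2 months, with 3 libraries of each age. Both ages had received 200 µg zymosan A, a yeast wall particle, into the peritoneum. Their cells were lavaged after 72 hours, grown overnight in medium with L-cell supernatant, freed of unattached cells and kept with vehicle (phosphate-buffered saline) for 6 hours, so every group had been exposed to zymosan and to culture. Cultures given the lipid resolvin D2, which the series also describes, were not analysed here.

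Autophagy encloses cytoplasm in a double membrane that fuses with the lysosome. A kinase complex built on ULK1 starts the process, a lipid kinase complex marks the site with phosphatidylinositol 3-phosphate (PI3P), and a pair of ubiquitin-like conjugation reactions attaches proteins of the LC3 family to the growing membrane. Cargo receptors bind both LC3 family proteins and the material to be degraded. Macrophages use the lipid kinase and conjugation steps also without the ULK1 complex, to place LC3 on phagosomes that hold particles such as zymosan. Many proteins of this pathway are turned over by the pathway itself, so a transcript level is neither a protein level nor a rate of autophagy.

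Values are normalized counts, that is reads per gene divided by the authors' size factor for the library. Fold changes are differences of log2(normalized count + 1), old minus young, with limma's standard error and its Benjamini-Hochberg adjusted p over all 11795 genes with a mean of at least 10, and a gene passed with an adjusted p under 0.05. Library totals were 8163016 to 13007604 recovered reads in old and 9795602 to 12482266 in young, and a member had 41 to 9230 reads per library. The libraries numbered 3 stood apart: on the second principal component, which held 18.2% of the variance, old replicate 3 had the lowest score and young replicate 3 the highest, and ribosomal RNA genes took 1.34% of old replicate 3 against 0.0177% to 0.154% of the other libraries. The labels do not say whether the 3 libraries of an age are 3 mice or repeat sequencing, so p-values measure the spread between libraries, which may be technical. Macrophage markers were high in every library, with summed normalized counts of 345257 to 430483 in old and 274834 to 349804 in young over 8 genes, mostly from the lysozyme gene Lyz2.

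Autophagy genes were more often higher than lower in old macrophages, and all of their changes were modest. Of the 33 genes, 13 rose in old (39.4%), against 17.9% of all tested genes, and 2 fell (6.06%), against 17.6%. Together 15 passed (45.5%), against 35.5% of all tested genes, and all 33 had been above the filter on low values. The median log2 fold change of the members was 0.20, against 0.00 over all tested genes. No member reached a difference of 1 on the log2 scale in either direction, a size that 10.6% of all tested genes reached. The largest was 0.83 (Wipi1), and 4 of 33 members reached 0.5, against 27.6% of all tested genes. Old and young libraries did not overlap in 16 members (48.5%), which is close to the 47.5% of all tested genes.

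How many members passed depended on single libraries. The share of members higher in old is given with that of all genes tested in the same fit. It was 5 of 33 (15.2%, against 12.2% of all genes) without old replicate 1 and 7 of 33 (21.2%, against 12.5% of all genes) without old replicate 2, and 16 of 33 (48.5%, against 23.6% of all genes) without old replicate 3. It was 7 of 33 (21.2%, against 13.6% of all genes) without young replicate 1 and 6 of 33 (18.2%, against 12.4% of all genes) without young replicate 2, and 12 of 33 (36.4%, against 17.6% of all genes) without young replicate 3. The excess of higher members over all genes was therefore small with old replicate 1 left out. The number of lower members was 2, except that it was 3 without old replicate 3 and 1 without young replicate 2. With old replicate 3 and young replicate 3 both left out, 17 members were higher and 3 lower, where 30.3% of all genes tested were higher, 28.7% lower and 59.0% passed in either direction. In 7 of the 13 members that rose, old replicate 3 was the lowest old library and young replicate 3 the highest young one, and this held for 47.3% of all genes higher in old. The same 5 genes passed in each of the 19 alternative fits: Wipi1 on the lower side, and Vmp1, Atg10, Gabarap and Pik3c3 on the higher.

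Transcripts of some other cells moved with age too. Summed normalized counts of 7 B cell markers were 1369 to 2944 in old and 51.8 to 59.3 in young, and all 7 rose. Those of 6 mast cell markers were 534 to 605 in old and 38.2 to 62.5 in young, and the 5 that could be tested rose. Both sums far exceeded those of the young libraries, and the B cell sum was lowest of the old in replicate 3. T and NK cell markers summed to 30.5 to 56.4 in old and 0 to 5.26 in young. The neutrophil marker S100a8 had 612, 653 and 509 normalized counts in old, against 184, 220.2 and 238 in young, while Camp had 0 reads in 5 libraries. The other listed neutrophil markers, Ly6g, S100a9, Ngp, Mpo and Retnlg, had no row in the deposited table, so S100a8 alone was tested. Eosinophil markers, of which Prg2 and Epx had no row, summed to 8.89 to 16.2 in old and 6.04 to 14.9 in young. Dendritic cell markers summed to 12.7 to 17.1 in old and 7.61 to 14.0 in young. The ages overlapped in both sums, and no gene of either list could be tested. Mesothelial and fibroblast markers, of which Krt19 had no row, summed to 403 to 486 in old and 493 to 621 in young. Within that last list Pdgfra rose 2.33-fold and Col1a1 fell, 1.59-fold higher in young (limma adjusted p = 0.00357 and 0.00407). Macrophage markers rose as well in 6 of 8 cases, where 17.9% of all tested genes rose. On the log2 scale these rises ran from 0.26 for the growth factor receptor gene Csf1r to 0.89 for the lipopolysaccharide co-receptor gene Cd14. The autophagy genes that rose ran from 0.21 to 0.61. The part of these shifts in the autophagy values was not tested. In RNA of whole cultures, fewer cells of a type and less RNA per cell cannot be told apart.

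**Figure D1:**
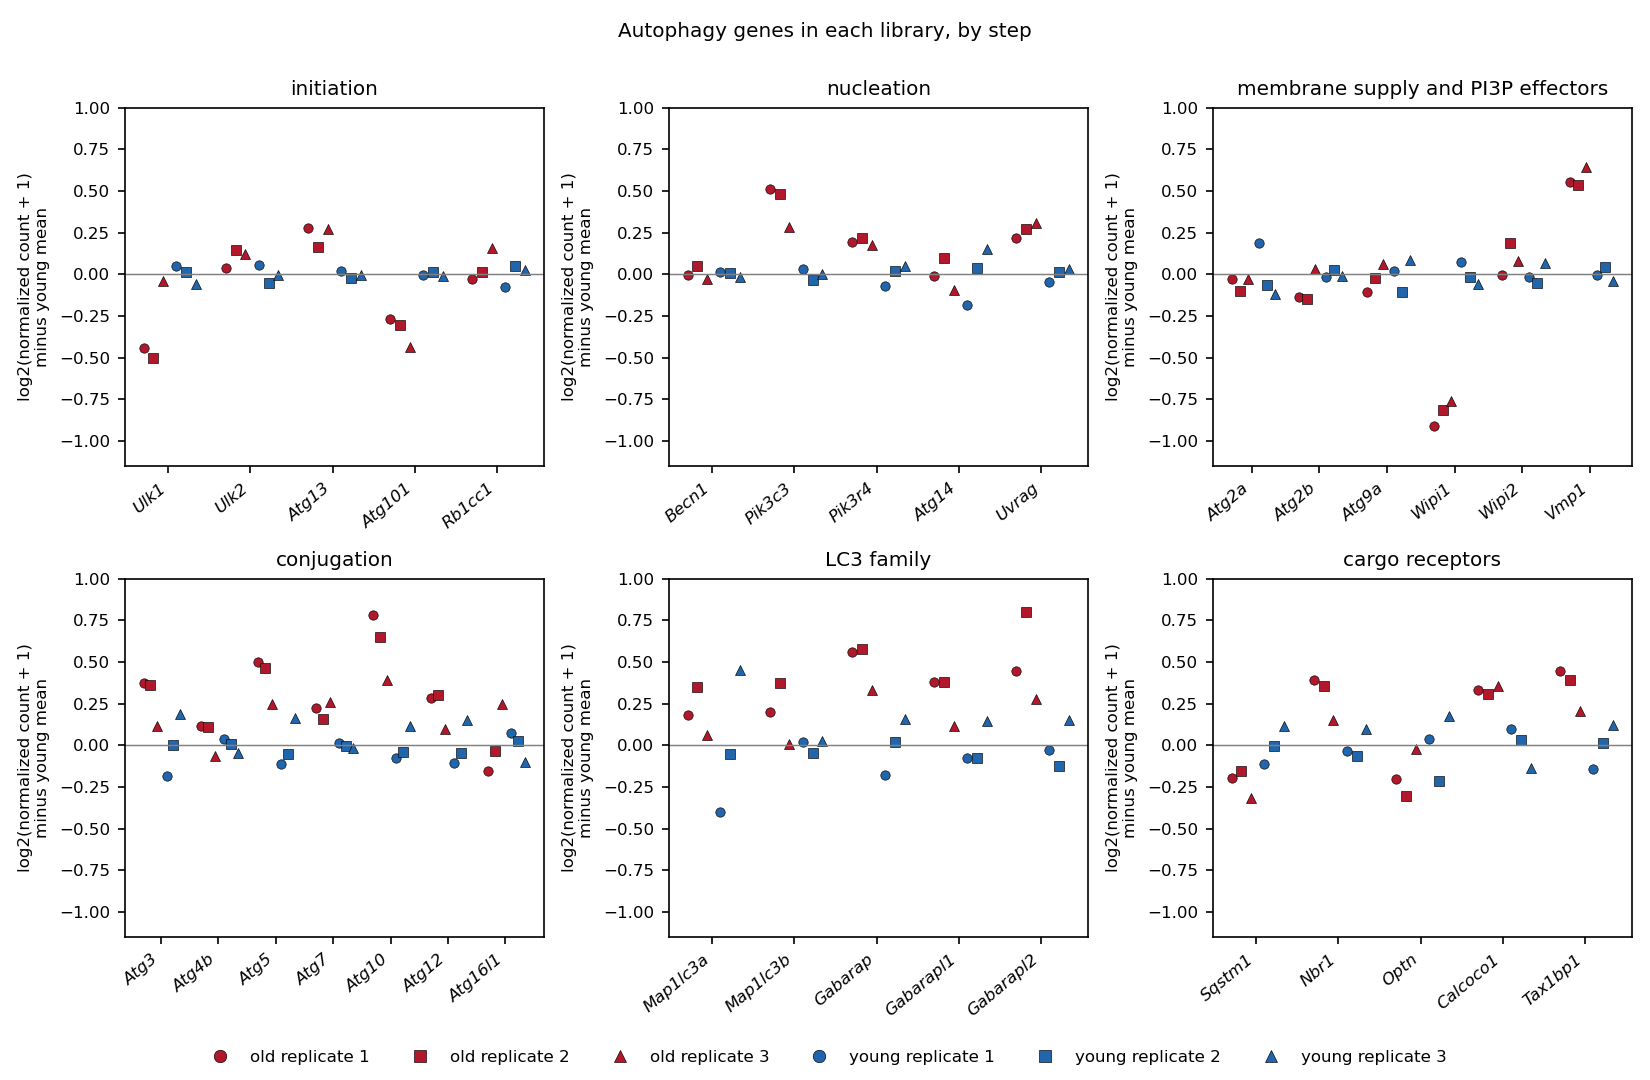
Each point is 1 library, as log2(normalized count + 1) minus the mean of the 3 young libraries, with 1 panel per step and old libraries (red) left of young ones (blue). Wipi1 lay lowest and Vmp1, Pik3c3 and Atg10 clearly above the young libraries, while old replicate 3 (red triangle) often lay nearer to the young libraries than the other old ones.

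The stretches around the transcription starts of the 4 members with the largest log2 change among those that passed, Wipi1, Atg10, Vmp1 and Gabarapl2, are shown because the size of their age difference was greatest. Each runs 5′ to 3′ on its own strand from 250 bases before to 50 after a RefSeq start (GRCm38.p6), and capitals mark any match to 5 motifs searched on both strands.
Wipi1, chr11:109611340-109611639, minus strand: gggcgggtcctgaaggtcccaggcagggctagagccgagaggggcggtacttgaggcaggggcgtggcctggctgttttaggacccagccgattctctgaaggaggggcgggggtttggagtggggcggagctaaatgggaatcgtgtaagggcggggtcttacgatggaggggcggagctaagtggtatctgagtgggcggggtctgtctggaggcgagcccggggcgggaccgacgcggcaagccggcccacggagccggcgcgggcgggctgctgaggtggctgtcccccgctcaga
Atg10, chr13:91223938-91224237, minus strand: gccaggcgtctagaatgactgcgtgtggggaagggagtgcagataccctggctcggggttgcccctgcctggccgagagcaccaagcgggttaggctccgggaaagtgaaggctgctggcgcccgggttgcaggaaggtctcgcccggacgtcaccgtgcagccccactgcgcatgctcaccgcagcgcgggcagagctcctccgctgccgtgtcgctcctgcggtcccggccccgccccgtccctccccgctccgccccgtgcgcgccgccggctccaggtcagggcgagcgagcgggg
Vmp1, chr11:86683787-86684086, minus strand: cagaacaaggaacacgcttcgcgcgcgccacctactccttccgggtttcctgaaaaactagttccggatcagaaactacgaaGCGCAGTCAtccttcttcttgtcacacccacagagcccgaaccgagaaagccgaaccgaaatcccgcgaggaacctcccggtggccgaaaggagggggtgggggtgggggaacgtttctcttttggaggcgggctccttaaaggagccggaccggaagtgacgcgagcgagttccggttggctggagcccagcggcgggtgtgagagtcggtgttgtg
Gabarapl2, chr8:111940453-111940752, plus strand: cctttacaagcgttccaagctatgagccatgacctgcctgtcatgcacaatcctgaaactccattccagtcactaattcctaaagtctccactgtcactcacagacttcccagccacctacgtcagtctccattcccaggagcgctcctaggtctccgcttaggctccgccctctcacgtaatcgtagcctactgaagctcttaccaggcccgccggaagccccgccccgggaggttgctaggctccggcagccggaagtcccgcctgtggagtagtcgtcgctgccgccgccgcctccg
The motifs were the E-box CACGTG, its extension TCACGTGA in which the lysosomal regulator TFEB is known to bind, the antioxidant response core TGACNNNGC, the FOXO motif GTAAACA and TGATGNAA, a form of the ATF4 element. The Vmp1 window held 1 antioxidant response core, on the reverse strand and beginning 168 bases before the start, and these letters occur in 12.4% of all 32851 such mouse windows. The other 3 windows held none of the 5 motifs. The Wipi1 window lies wholly inside the gene as drawn in GENCODE M21, where Wipi1, on the minus strand, begins at 109611967. The stretch before that start was not searched. GC content of the 4 windows was 69.0% for Wipi1, 73.0% for Atg10, 60.3% for Vmp1 and 60.0% for Gabarapl2.

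The subunits of the ULK1 complex did not move together. Atg13, the adaptor that holds the kinase complex together, rose, with 359.7, 333 and 358 normalized counts in old replicates 1, 2 and 3, against 302, 293 and 297 in young. Atg101, which encodes the partner that ATG13 binds, fell, with 275, 268 and 244 in old, against 329.9, 334 and 328 in young. The ages did not overlap for either gene. The log2 fold change was 0.24 ± 0.08 (SE; limma adjusted p = 0.0401) for Atg13 and -0.34 ± 0.08 (limma adjusted p = 0.0111) for Atg101. Atg13 no longer passed with any 1 of the 6 libraries left out (limma adjusted p from 0.0557 to 0.134) nor with edgeR or DESeq2 on the recovered reads (adjusted p = 0.0519 and 0.144), and Atg101 missed the threshold without young replicate 2 (limma adjusted p = 0.0525).

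The kinase genes themselves did not pass. Ulk1 had 188, 179.5 and 248 normalized counts in old, against 264, 257 and 245 in young. Old replicates 1 and 2 lay below every young library and old replicate 3 lay among them. Its log2 difference was -0.33 ± 0.13 (SE; limma adjusted p = 0.0713), and it was -0.47 with limma adjusted p = 0.00170 without old replicate 3. Its paralog Ulk2 averaged 563 ± 21.9 in old and 525 ± 19.5 in young (SD, n = 3 each), with a 95% interval of the log2 difference of -0.06 to 0.26. Rb1cc1, the gene of the scaffold FIP200, averaged 631 ± 43.4 in old and 609.8 ± 28.5 in young, with an interval of -0.13 to 0.22. Its exons share bases with an antisense gene, and a processed pseudogene matches it, so part of its reads may be misassigned.

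Of the nucleation genes, the catalytic subunit rose. Pik3c3, which encodes the lipid kinase VPS34, had 527, 515 and 449.6 normalized counts in old, against 377, 361 and 369 in young. Every old library lay above every young one, 1.35-fold in the means, with a log2 difference of 0.43 ± 0.08 (SE; limma adjusted p = 0.00354). Uvrag, a subunit of the form of the complex that acts on endosomes and phagosomes, also rose, with 851, 881 and 903 in old, against 708, 737 and 748 in young. It was 1.20-fold higher in old without overlap (log2 fold change 0.26 ± 0.06, limma adjusted p = 0.0111) and passed with each of the 6 libraries left out. Atg14, which directs the other form of the complex to autophagosomes, showed no such shift, with 117, 127 and 110.5 in old, against 104, 121 and 131 in young and an interval of -0.29 to 0.28 on the log2 scale.

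Becn1, the Beclin 1 gene shared by both forms, was close to equal at the 2 ages. It averaged 915 ± 26.2 normalized counts in old and 912 ± 10.2 in young (SD, n = 3 each), and the 95% interval of its log2 difference was -0.13 to 0.15. The regulatory subunit gene Pik3r4 had 572, 581 and 565 in old, against 476, 507 and 517 in young. These groups did not overlap, yet the gene missed the threshold at 0.20 ± 0.07 (SE) on the log2 scale (limma adjusted p = 0.0527). It passed without old replicate 3 (limma adjusted p = 0.0436). Becn1, Atg14 and Uvrag each share exon bases with a gene on the opposite strand, and their reads cannot be told apart where counting ignored strand.

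Of the 6 genes that deliver membrane or read PI3P, 1 fell and 1 rose, 33.3% in all, close to the 35.5% of all tested genes. The other 4 did not pass. Wipi1 (chromosome 11, 109573331 to 109611967, minus strand; GENCODE M21, GRCm38), which encodes a PI3P-binding propeller protein, had 135, 144 and 149.9 normalized counts in old, against 269, 252 and 244 in young. The highest old library was far below the lowest young one, and the mean was 1.78-fold higher in young. The log2 fold change was -0.83 ± 0.09 (SE; limma adjusted p = 1.30e-04). Its paralog Wipi2, the form that recruits ATG16L1 to PI3P, had 570.0, 652 and 605 in old, against 566, 551 and 599 in young, with overlapping groups and a 95% interval of -0.09 to 0.26.

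Vmp1 (chromosome 11, 86583865 to 86683836, minus strand), the gene of a lipid scramblase of the endoplasmic reticulum, had 1606, 1583 and 1707 normalized counts in old, against 1091, 1126 and 1064 in young. It was 1.49-fold higher in old without overlap (log2 fold change 0.58 ± 0.06 (SE); limma adjusted p = 1.11e-04). The hairpin of the microRNA miR-21a lies on the same strand in the last exon of the coding Vmp1 transcript. A gene-level count therefore holds reads of both the Vmp1 messenger RNA and any primary transcript of miR-21a. The mature 5′ product is shown because it marks that shared stretch, with its seed (bases 2 to 8) in capitals and the position in RefSeq on GRCm38.p6.
mmu-miR-21a-5p, chr11:86584120-86584141, minus strand: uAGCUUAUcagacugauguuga

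The remaining genes of this step did not pass. Atg2a and Atg2b encode the proteins that carry lipid to the growing membrane, and Atg9a a scramblase of the vesicles that seed it. Atg2a averaged 450.4 ± 13.3 normalized counts in old and 469 ± 54.5 in young, and Atg2b 679 ± 48.2 in old and 717 ± 11.7 in young (SD, n = 3 each). Atg9a had 247, 262 and 278 in old, against 269.6, 247 and 282 in young. The 95% intervals of their log2 differences lay within -0.26 to 0.18, and the ages overlapped for all 3 genes.

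Of the 7 conjugation genes, Atg10, Atg7 and Atg5 rose (42.9%) and the other 4 did not pass. Of all tested genes, 17.9% rose and 35.5% passed in either direction. Atg10, the gene of the conjugating enzyme for ATG12, had 127, 115 and 96.5 normalized counts in old, against 69.4, 71.1 and 79.4 in young. It was 1.54-fold higher in old without overlap, the largest rise of the set on the log2 scale (0.61 ± 0.14 (SE); limma adjusted p = 0.00903). Atg7, which encodes the activating enzyme of both reactions, had 1028, 981 and 1057 in old, against 890.2, 879 and 872 in young. The groups did not overlap, but the step was small, 1.16-fold (log2 fold change 0.21 ± 0.06, limma adjusted p = 0.0265). Atg7 lost its call without old replicate 1, young replicate 1, young replicate 2 or young replicate 3 (limma adjusted p from 0.0599 to 0.0999).

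Atg5, the acceptor of ATG12 and part of the complex that attaches LC3 to membranes, rose to 893, 870.2 and 751 normalized counts in old, against 584, 607 and 706 in young. Its log2 fold change was 0.41 ± 0.10 (SE; limma adjusted p = 0.0101), and without old replicate 1 its limma adjusted p was 0.0519. The other parts of that complex did not pass. Atg12 had 658, 667 and 578 in old, against 501, 523 and 600.0 in young, which is 0.23 ± 0.09 (SE) on the log2 scale (limma adjusted p = 0.0834). Atg16l1, which places the complex on the membrane, had 501, 545 and 662 in old, against 586, 569 and 521 in young, with old replicate 3 highest of all libraries. Its interval of -0.22 to 0.26 on the log2 scale spanned 0.

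Atg3, the conjugating enzyme gene for LC3 itself, had 765, 759 and 640.1 normalized counts in old, against 519, 591 and 672 in young. Old replicate 3 lay below young replicate 3, the others did not overlap, and the log2 difference of 0.28 ± 0.11 (SE) missed the threshold (limma adjusted p = 0.0722). Atg3 and Atg12 both passed without old replicate 3 (limma adjusted p = 0.00799 and 0.0145) and without young replicate 3 (0.0260 and 0.0327). Atg4b, the protease that trims LC3 family proteins before conjugation, averaged 356 ± 24.4 in old and 342 ± 10.0 in young (SD, n = 3 each), with an interval of -0.13 to 0.24.

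E-boxes lay in the start windows of 4 of the 27 members that had a window in the RefSeq table, Atg3, Atg5, Atg7 and Atg14, against 7.15% of all mouse windows, and 3 of these are conjugation genes. They are shown, chosen after the search, with 12 bases on either side and the E-box in capitals.
Atg3, chr16:45158723-45158752, plus strand: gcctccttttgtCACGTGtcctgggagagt
Atg3, chr16:45158746-45158775, plus strand: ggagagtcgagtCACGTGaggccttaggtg
Atg5, chr10:44268313-44268342, plus strand: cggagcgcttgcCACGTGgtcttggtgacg
Atg7, chr6:114670952-114670981, plus strand: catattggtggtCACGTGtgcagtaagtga
Atg14, chr14:47568418-47568447, minus strand: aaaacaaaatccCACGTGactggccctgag
Of these genes Atg5 and Atg7 rose, and Atg3 and Atg14 did not pass. The Atg7 and Atg14 sites lie near RefSeq starts inside the genes as drawn in GENCODE M21. There Atg7 begins at 114643097, and Atg14, on the minus strand, at 47570649. The second Atg3 site is the only TCACGTGA among the member windows, a sequence found in 0.974% of all windows. The antioxidant response core lay in the windows of Atg13, Map1lc3b, Ulk2 and Vmp1 (14.8% of the 27, close to the 12.4% of all windows). Neither the FOXO nor the ATF4 letters occurred in a member window. They are rare in all windows too, at 3.65% and 3.97%, so 27 windows are too few to read their absence. A match describes letters and does not show binding.

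**Figure D2:**
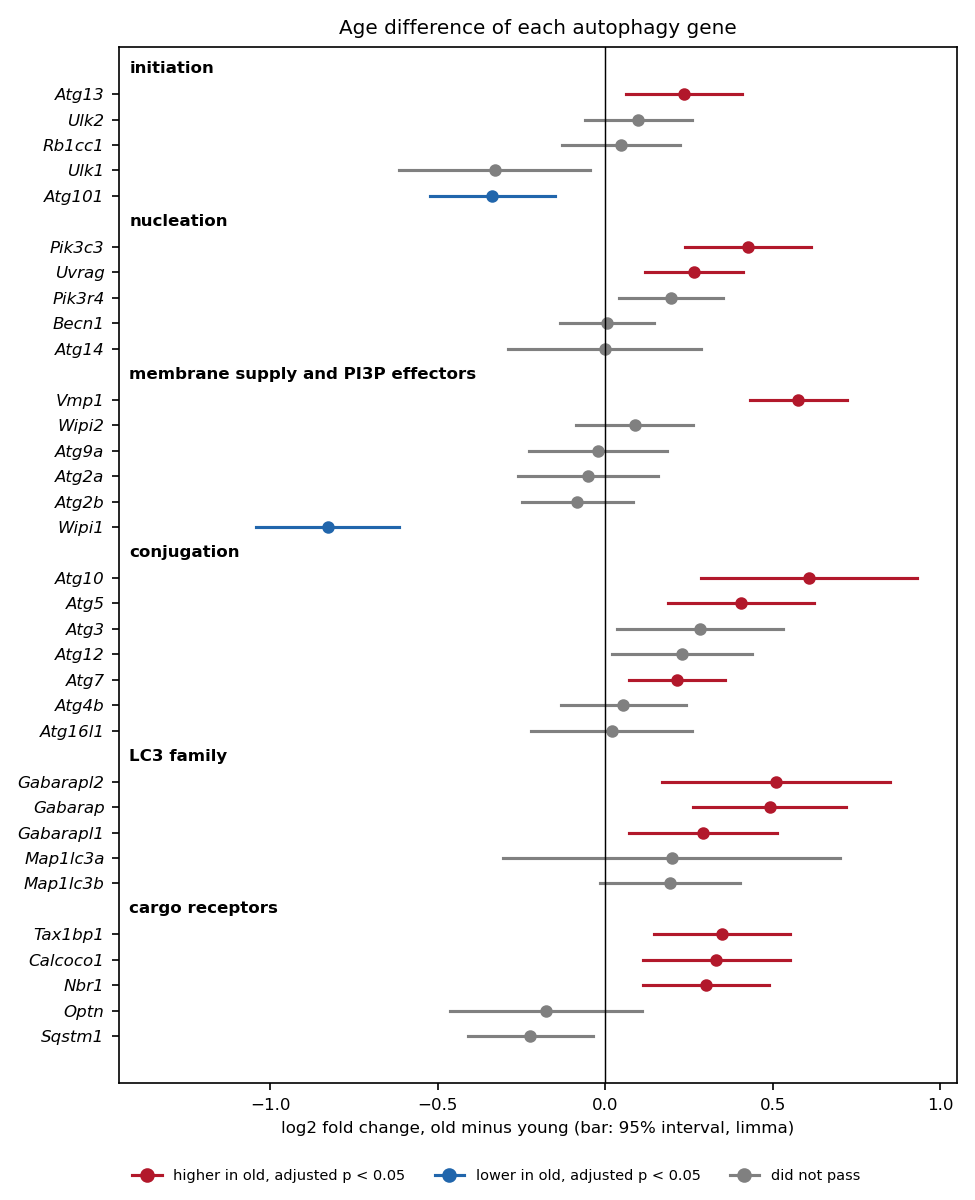
Points give the log2 fold change of each gene, old minus young, and bars its 95% interval from limma, grouped by step; red and blue mark genes that passed as higher or lower in old. The 13 red genes are spread over all 6 steps, and the 2 blue ones are Wipi1 at -0.83 and Atg101 at -0.34.

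Of the 5 LC3 family genes, the 3 of the GABARAP branch rose (60.0%), where 17.9% of all tested genes rose and 35.5% passed either way. Gabarap (chromosome 11, 69991143 to 69994951, plus strand), whose product acts late in closure of the membrane and fusion, had 4657, 4709.9 and 3972 normalized counts in old, against 2794, 3194 and 3519 in young. Every old library was above every young one, 1.40-fold in the means (log2 fold change 0.49 ± 0.10 (SE); limma adjusted p = 0.00471). Gabarapl1 had 840.1, 839 and 699 in old, against 613, 612 and 714 in young. Old replicate 3 lay below young replicate 3, and the log2 fold change was 0.29 ± 0.10 (limma adjusted p = 0.0432). Gabarapl2, known as GATE-16, had 153, 196 and 136 in old, against 109.6, 103 and 124 in young, without overlap and 1.44-fold higher in old (limma adjusted p = 0.0266). Both lost their calls without old replicate 1, old replicate 2, young replicate 1 or young replicate 2, with limma adjusted p from 0.138 to 0.157 for Gabarapl1 and 0.0631 to 0.0996 for Gabarapl2.

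The LC3 genes proper did not pass, but whether their change differed from that of the GABARAP branch was not tested. The 95% interval of the log2 difference was -0.02 to 0.40 for Map1lc3b and 0.07 to 0.51 for Gabarapl1, so the intervals overlapped. Map1lc3b, the form most used as a marker of autophagosomes, had 866, 976 and 759.5 normalized counts in old, against 764, 731 and 767 in young, with old replicate 3 below 2 of the young libraries. Its log2 fold change was 0.19 ± 0.09 (SE; limma adjusted p = 0.136), and it passed without old replicate 3 (limma adjusted p = 0.00812). Map1lc3a was the least abundant member by reads, with 62.1, 70.1 and 57.2 in old, against 41.2, 52.6 and 75.2 in young. The young libraries alone covered the whole range of the old ones. Map1lc3b has 4 and Gabarapl2 3 processed pseudogenes that match over at least 300 bases at 95% identity or more, and reads of these 2 genes may have been split or dropped.

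Levels were compared between family members per kilobase of exon, over all annotated exons of a gene, which lowers the figure for genes with long rare isoforms. Gabarap was by far the most abundant, with 2411 ± 223 normalized counts per kb in old and 1719 ± 197 in young (SD, n = 3 each). Gabarapl1 followed with 394 ± 40.5 in old and 321 ± 29.2 in young, and Map1lc3b with 115 ± 14.4 in old and 100.3 ± 2.69 in young. The order of Gabarapl1 and Map1lc3b depends on the exon lengths used, 2013 and 7517 bases. Undivided, Map1lc3b averaged 867 normalized counts in old and 754 in young, above Gabarapl1 at 793 and 646. Gabarapl2 had 69.5 ± 13.3 in old and 48.2 ± 4.73 in young, and Map1lc3a 53.5 ± 5.53 in old and 47.7 ± 14.6 in young. The libraries of these last 2 genes overlapped at both ages, while the first 3 genes were apart from each other and from the rest. Of the summed level per kb, Gabarap made up 79.2% ± 0.455 in old and 76.8% ± 1.16 in young. The family sum was 3176, 3245 and 2709 per kb in old, against 2003, 2222 and 2482 in young. It was 1.36-fold higher in old without overlap (2-sided exact permutation p = 0.1, the smallest that 3 against 3 allows), a sum that Gabarap dominates.

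**Figure D3:**
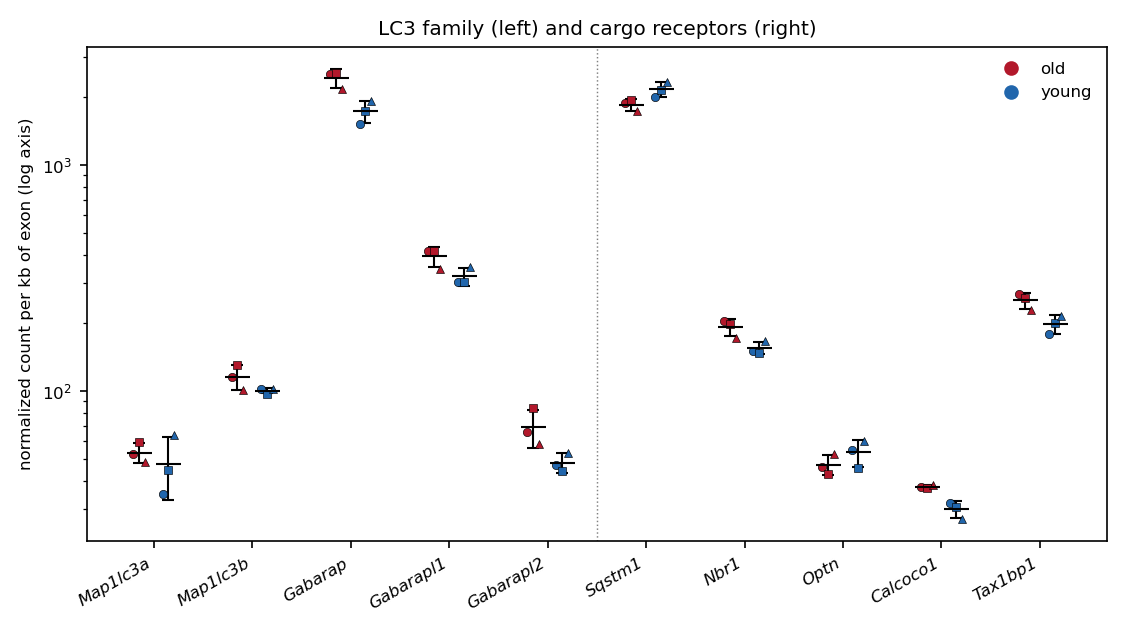
Normalized counts per kb of exon on a log axis, with 1 point per library, the mean and SD of 3 libraries, and old (red) left of young (blue). Gabarap and Sqstm1 stand highest, and only Sqstm1 and Optn have a lower mean in old.

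Of the 5 cargo receptors, 3 rose (60.0%) and the most abundant did not, where 17.9% of all tested genes rose and 35.5% passed either way. Tax1bp1, a ubiquitin-binding receptor that also restrains inflammatory signalling, had 2677, 2578 and 2275 normalized counts in old, against 1783, 1990.0 and 2146 in young, without overlap (log2 fold change 0.35 ± 0.09 (SE); limma adjusted p = 0.0147). Nbr1, a receptor for ubiquitinated proteins and peroxisomes, had 1395, 1363 and 1182 in old, against 1037, 1016 and 1139.9 in young, also without overlap (0.30 ± 0.08, limma adjusted p = 0.0200). Calcoco1, a receptor for endoplasmic reticulum, had 216, 213 and 219.7 in old, against 184, 175 and 156 in young. The 3 old libraries were nearly alike and lay above all young ones (log2 fold change 0.33 ± 0.10, limma adjusted p = 0.0256). Tax1bp1 and Nbr1 lost their calls without old replicate 1, old replicate 2, young replicate 1 or young replicate 2, with limma adjusted p from 0.0515 to 0.0731 for Tax1bp1 and 0.0701 to 0.0923 for Nbr1. Calcoco1 lost its call without old replicate 1, old replicate 2, young replicate 2 or young replicate 3 (0.0649 to 0.0770), with old replicate 3 and young replicate 3 both left out (0.0522) and with DESeq2 (0.0970).

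Sqstm1 encodes p62, the receptor for ubiquitinated aggregates whose protein accumulates when autophagy is blocked and whose gene is a target of NRF2. It had 6279, 6477 and 5783 normalized counts in old, against 6670.1, 7188 and 7799 in young. All 3 old libraries lay below all 3 young ones, and the mean was 1.17-fold higher in young. Its log2 fold change of -0.22 ± 0.08 (SE) did not pass in limma (adjusted p = 0.0636). On the recovered reads it passed with edgeR (log2 fold change -0.25, adjusted p = 0.0290) and with DESeq2 (-0.23, adjusted p = 0.0109). Quantile normalization gave -0.48 (limma adjusted p = 9.60e-05). In all, Sqstm1 passed in 4 of the 19 alternatives, with log2 fold changes from -0.48 to -0.12. It did not pass with any 1 of the 6 libraries left out, nor with old replicate 3 and young replicate 3 both left out (limma adjusted p = 0.0619). Per kb of exon it was the most abundant member in young, at 2151 ± 168, and second to Gabarap in old, at 1841 ± 107. Optn, the optineurin gene, a receptor for damaged mitochondria and bacteria, had 173, 162 and 197 in old, against 205, 172 and 226 in young, with overlapping groups and an interval of -0.46 to 0.11 on the log2 scale.

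Ratios within a library show unequal change of related genes and hardly depend on the size factor. For Sqstm1 over Nbr1 the log2 ratio was 2.24 ± 0.06 in old and 2.76 ± 0.07 in young (SD, n = 3 each), so Sqstm1 was lower relative to Nbr1, the gene of a partner of p62, in every old library than in any young one. For Wipi1 over Wipi2 it was -2.08 ± 0.08 in old and -1.16 ± 0.11 in young. For Ulk1 over Ulk2 it was -1.47 ± 0.25 in old and -1.04 ± 0.06 in young, with old replicate 3 nearest to the young libraries. The ages also separated for Atg14 over Uvrag, for Gabarapl1 over Gabarap and for Gabarapl1 over Gabarapl2, with differences of -0.27, -0.20 and -0.22, old minus young. In these 6 of 8 pairs the 2-sided exact permutation p was 0.1, the smallest that 3 against 3 allows, and 0.133 adjusted over the 8 pairs, so none could pass. As single genes, 47.5% of all tested genes also separated the ages. Atg2a over Atg2b (exact permutation p = 0.8) and Map1lc3a over Map1lc3b (exact permutation p = 1) overlapped.

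**Figure D4:**
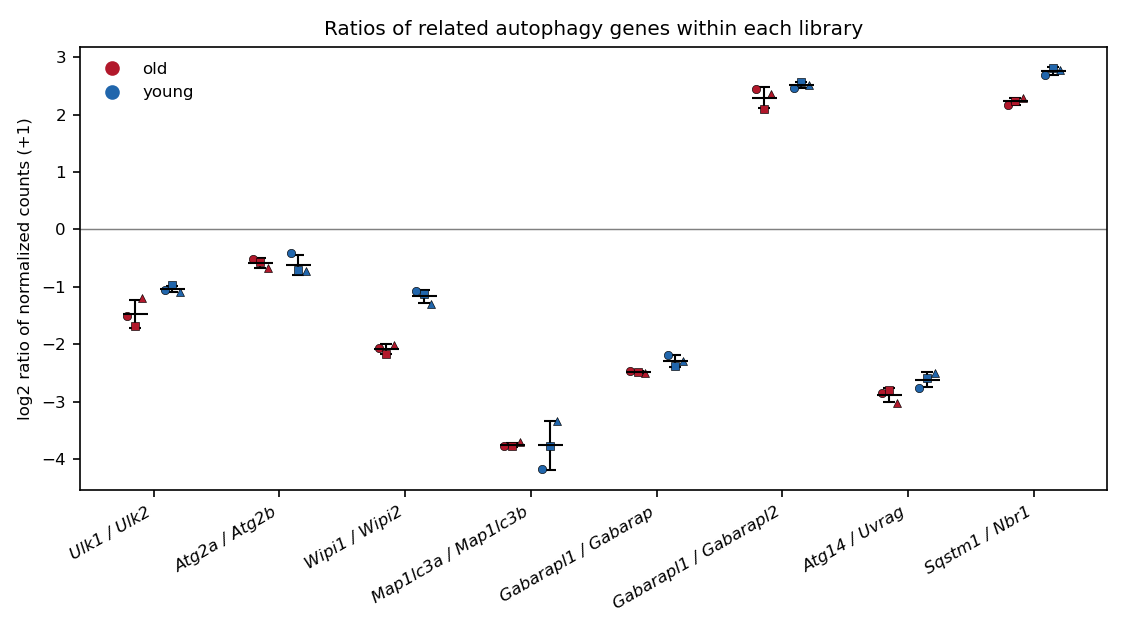
Log2 ratio of 2 related genes in each library, with mean and SD of 3 libraries, and old (red) left of young (blue). The Wipi1 to Wipi2 and Sqstm1 to Nbr1 ratios have the widest gaps between the ages, at -0.92 and -0.52, old minus young.

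The wider pathway, in 71 further genes on 4 lists, was near the background in the higher direction. Of 68 that could be tested, 13 rose (19.1%, against 17.9% of all tested genes) and 8 fell (11.8%, against 17.6%), with a median log2 fold change of 0.02. Among 13 other core autophagy genes 0 rose and 1 fell, 7.69% in all, against 35.5% of all tested genes. The gene that fell was Rubcn, whose product Rubicon inhibits the UVRAG complex in autophagy but is needed to place LC3 on phagosomes. It had 554, 585 and 593 normalized counts in old, against 724, 642 and 649.8 in young (log2 fold change -0.22 ± 0.08 (SE); limma adjusted p = 0.0497). It lost its call with any library other than old replicate 3 left out (limma adjusted p from 0.0629 to 0.178).

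Of 14 genes for fusion with the lysosome, 4 rose and 1 fell, 35.7% in all, close to the 35.5% of all tested genes. Tecpr1, whose product tethers autophagosomes to lysosomes, averaged 1261 ± 94.5 in old and 905 ± 71.9 in young (SD, n = 3 each). The tethering subunit genes Vps41 and Vps39 rose by 0.32 and 0.30 on the log2 scale, and Vps39 lost its call without young replicate 1 (limma adjusted p = 0.0516). The SNARE gene Ykt6 fell (-0.38, limma adjusted p = 0.00457).

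Of 16 tested receptors for single organelles or cargoes, 3 rose (18.8%, against 17.9% of all tested genes) and 4 fell (25.0%, against 17.6%). Ncoa4, the receptor for ferritin, had 579.6, 532 and 442 normalized counts in old, against 241, 278 and 306 in young, 1.88-fold higher in old (limma adjusted p = 3.92e-04). Bnip3l, the mitochondrial receptor NIX, had 1138, 1197 and 923 in old, against 531, 617 and 626 in young, 1.84-fold higher. Retreg1, a receptor for endoplasmic reticulum sheets, fell to 345, 313 and 334 in old, against 649.8, 670.4 and 662 in young (log2 fold change -0.998 ± 0.07 (SE); limma adjusted p = 7.25e-06). Wdfy3, the scaffold ALFY for aggregates, had 2893, 2758 and 3668 in old, against 5354, 5108 and 4671 in young, 1.62-fold higher in young.

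Among 25 upstream regulators 6 rose and 2 fell. These make up 32.0% of the list, against 35.5% of all tested genes. Mitf, a relative of the lysosomal regulator TFEB, had 1429, 1524 and 1473 normalized counts in old, against 806, 844 and 851 in young, 1.77-fold higher in old (limma adjusted p = 1.04e-05). Its relatives, picked here for the values they showed, were less clear: Tfeb was at 0.39 on the log2 scale (limma adjusted p = 0.0483, and 0.0545 to 0.168 with any library other than old replicate 1 left out). Tfe3 was at -0.24 (limma adjusted p = 0.0174, and 0.0567 to 0.0845 without replicate 1 or 2 of either age). Deptor, an inhibitor of the kinase mTOR, rose 1.42-fold. The stress-induced mTORC1 inhibitors moved apart, with Sesn1 1.59-fold higher in old and Sesn2 1.62-fold higher in young (limma adjusted p = 8.53e-04 and 8.87e-04).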

How the data were processed

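RNA of the 6 cultures was prepared with the TruSeq protocol, per the labels. The authors deposited signal values, reads of each gene over the library's size factor. DESeq2 and mm10 are named, per the submitters' processing notes. Not given in the sources used here: aligner, counter, use of strand. Whole reads were recovered by division (100% of values within 0.01 reads). Symbols, positions and exon lengths come from GENCODE M21 (GRCm38), which matched 19917 of 19973 identifiers, and start windows and the microRNA from RefSeq (GRCm38.p6), with windows for 27 of 33 members.

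The test was limma 3.58.1 (R 4.3.3) with a variance trend on log2(normalized count + 1), over 11795 genes with a mean of at least 10. On this scale the change of low genes is understated. Checked on 3 runs of simulated counts for this comparison (about 11793 genes tested), it recovered 66.0% of 1.5-fold and 88.0% of 2-fold changes. Of its calls there, 6.19% were false. Each run changed 200 genes and drew every gene independently, without the shift of the libraries numbered 3. These rates may therefore not hold for the measured data. On recovered reads, DESeq2 1.42.0 and the quasi-likelihood test of edgeR 4.0.16 were run as alternatives. Intervals are 95%. The members, lists, motifs and pairs were chosen with earlier results of these data known. All 33 members are named, and from each other list up to 4 passing genes with the smallest adjusted p, plus Tfeb and Tfe3. Sequences of the LC3 family proteins were not used here. No 2 libraries agreed within sampling noise, but replicates 1 and 2 of an age came closest. Their median chi-square per gene, over its value under sampling noise, was 1.49 in old and 1.77 in young. Pairs within an age that included replicate 3 gave 2.92 to 4.69. Near-identical transcripts were sought with blastn.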

Additional observations from a re-analysis of the deposited data

How the results depend on the processing

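Over 19 alternatives and 33 members, the log2 fold change kept its call in 545 of 627 cases, a call was lost in 56 and gained in 26, and none of the calls reversed. Only the 15 members that passed could lose a call. Of these, 5 kept it in all 19 alternatives, while Atg13 kept it in 8 and Calcoco1 in 11. With 1 library left out, members higher in old ranged from 5 to 16, members lower from 1 to 3, all genes called from 2940 to 5660 and the member median from 0.12 to 0.21. limma without the variance trend called 8 members higher, losing Atg7, Gabarapl1, Gabarapl2, Nbr1 and Tax1bp1, and edgeR without the filter called 4 lower. Median centring moved the member median to 0.25, and 60.3% of its calls were higher in old, against 50.4%. A fit without both libraries numbered 3, an alternative added after the data were seen, called 6960 genes. The causes were not tested.

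Deviations of same-numbered libraries from their age means correlated at -0.38, -0.36 and -0.68, and no library correlated best with its own number. The 3 deviations of an age are not independent, and the libraries numbered 3 stood apart. Whether libraries of the same number were handled together therefore cannot be told from these values. With the replicate number as a block, 2643 genes passed, with 4 members higher (12.1%, close to the 10.9% of all genes) and 1 lower (3.03%, against 11.5%), and 12 of the other pathway genes. Depth limits Map1lc3a most, with 41 to 89 reads per library. Member values of the 11 genes that share exon bases with an opposite-strand gene are uncertain to that extent.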
